A study of Mus musculus with 8 samples.

Results

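*Nr4a2*, *Pitx3*, *Pbx3*, *Ebf1*, *Ebf2*, *Ebf3* and *Satb1* encode transcription factors and chromatin proteins found in postmitotic mesodiencephalic dopaminergic (mdDA) neurons or in young neurons more widely. They are 7 of the 19938 genes that the array annotation names with a single symbol, they were taken as a list of names, and each is measured by 1 probe set. The study used Affymetrix Mouse Gene ST arrays to ask how the WNT/b-catenin-responsive mdDA domain differs from neighbouring midbrain tissue and from mdDA neurons later in development. There were 4 groups with 2 arrays each. The lateral domain and the mdDA domain were laser-microdissected at E12.5 from BAT-gal embryos of a mixed B6D2F1 background, which carry a b-GAL reporter driven by LEF1/TCF sites, and each held tissue pooled from 5 embryos. The other groups were GFP-expressing neurons sorted by flow cytometry at E13.5 and at E14.5 from the ventral midbrain of Pitx3GFP/+ embryos of a mixed C57BL/6 x 129/Ola background. All sorted neurons thus carry GFP in 1 *Pitx3* allele, while the dissected tissue has no such allele in its labels. The labels call both arrays of a group technical replicates, so every p-value below measures the spread between arrays and not between embryos.

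NR4A2 (NURR1) is an orphan nuclear receptor that is switched on as mdDA precursors leave the cell cycle and is required for these neurons to acquire their transmitter identity. PITX3 is a bicoid-related homeodomain protein that in the brain is largely restricted to mdDA neurons, acts with NR4A2 on shared target genes and is needed for the survival of a substantia nigra subset. PBX3 is a TALE-class homeodomain cofactor that binds DNA with MEIS, PKNOX and HOX proteins. EBF1, EBF2 and EBF3 are helix-loop-helix proteins of the early B-cell factor family and act in the differentiation and migration of newly born neurons in many regions. SATB1 is a chromatin organizer that folds and silences or activates target loci and is found in dopaminergic neurons as well as in lymphocytes.

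To show the DNA just upstream of the genes whose transcripts are described, windows of 250 bases before the annotated start were taken from RefSeq (GRCm38.p6), where 5 of the 7 genes had at least 1 window. Those of *Nr4a2* and *Pitx3*, the defining mdDA pair, and of *Ebf3*, the EBF gene with a match to the EBF motif, are printed 5′ to 3′ on the coding strand. They lie on the minus strand at chr2:57124004-57124253, chr19:46148326-46148575 and chr7:137314446-137314695. Capitals mark a match to any of 6 short motifs searched on both strands.
*Nr4a2*: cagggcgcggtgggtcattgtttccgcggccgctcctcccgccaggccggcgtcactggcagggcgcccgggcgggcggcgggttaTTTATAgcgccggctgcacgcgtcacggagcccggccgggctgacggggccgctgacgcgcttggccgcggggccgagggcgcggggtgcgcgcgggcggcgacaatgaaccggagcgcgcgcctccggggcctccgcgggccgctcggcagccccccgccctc
*Pitx3*: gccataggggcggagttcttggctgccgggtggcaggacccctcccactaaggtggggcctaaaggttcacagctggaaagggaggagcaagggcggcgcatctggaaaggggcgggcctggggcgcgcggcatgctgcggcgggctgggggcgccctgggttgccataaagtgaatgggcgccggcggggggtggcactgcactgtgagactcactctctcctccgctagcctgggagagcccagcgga
*Ebf3*: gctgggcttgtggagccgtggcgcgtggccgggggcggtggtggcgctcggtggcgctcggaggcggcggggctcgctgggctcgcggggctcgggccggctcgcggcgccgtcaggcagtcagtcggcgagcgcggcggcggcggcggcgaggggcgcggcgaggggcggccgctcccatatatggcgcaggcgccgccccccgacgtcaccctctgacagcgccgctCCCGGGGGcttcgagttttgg
The *Nr4a2* window had 80.0% G and C, the *Pitx3* window 68.8% and the *Ebf3* window 80.0%, against a median of 52.4% over the 32841 windows of all genes. The motifs were the LEF1/TCF core CTTTGA (in 13.8% of all windows), the NR4A monomer element AAAGGTCA (1.34%), the EBF motif CCCNNGGG (11.8%), the bicoid-type element TAATCC (6.25%), a PBX core TGATTGAT (0.67%) and the TATA box TATAAA (12.4%). The *Nr4a2* window held 1 match, to the reverse complement of the TATA box, 164 bases before the start. The *Ebf3* window held 1 match, to the EBF motif, 21 bases before the start. The *Pitx3* window held none of these motifs. In a longer stretch of the *Pitx3* promoter the paper reports conserved LEF1/TCF sites, bound by LEF1 in ventral midbrain chromatin. Its pattern for these sites differs from CTTTGA, so the lack of a match in this short window does not bear on them. A match in such a window is a description of letters and not a site of binding.

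All values are log2 levels made by RMA, which corrects the background, normalizes the arrays and summarizes the probes of a probe set. The deposited arrays still differed in their medians, which were 4.57 to 4.60 on the dissected arrays and 4.39 on each sorted array. Genes are not compared with each other by level, since each probe set has its own affinity. Odorant and vomeronasal receptor genes served as a floor, on the assumption, not tested here, that most of them are silent in these samples. All 7 genes lay above the 95th percentile of these 1210 probe sets on all 8 arrays, by a log2 margin of at least 1.88 (*Nr4a2*, lateral domain). The labels were checked against 4 dopaminergic neuron markers, *Th*, *Ddc*, *Slc18a2* and *Slc6a3*, all of them higher in the mdDA domain and higher again in sorted neurons (limma), whose summed linear level was 102 to 116 on the lateral arrays, 1119 to 1160 on the mdDA arrays, 3034 to 3118 in E13.5 neurons and 2855 to 2871 in E14.5 neurons. Other cell types moved with the groups too. The sum of 5 neural progenitor markers was 2150 to 2192 in the lateral domain, 1338 to 1374 in the mdDA domain and 511 to 730 in the sorted neurons, and that of 6 GABAergic markers was 1546 to 1630, 156 to 182 and 527 to 640. The GABAergic markers did not all move alike. In sorted neurons 4 of them passed as higher than in the mdDA domain (limma), while *Gata2* and *Tal2* did not. Against the lateral domain 5 passed as lower in sorted neurons, while *Slc32a1* was higher (group means 7.62 and 6.44). The sum of 3 erythroid markers was 2700 to 3140 on the dissected arrays and 45 to 59 on the sorted ones. The part of these cell types in the differences below was not tested.

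**Figure D1:**
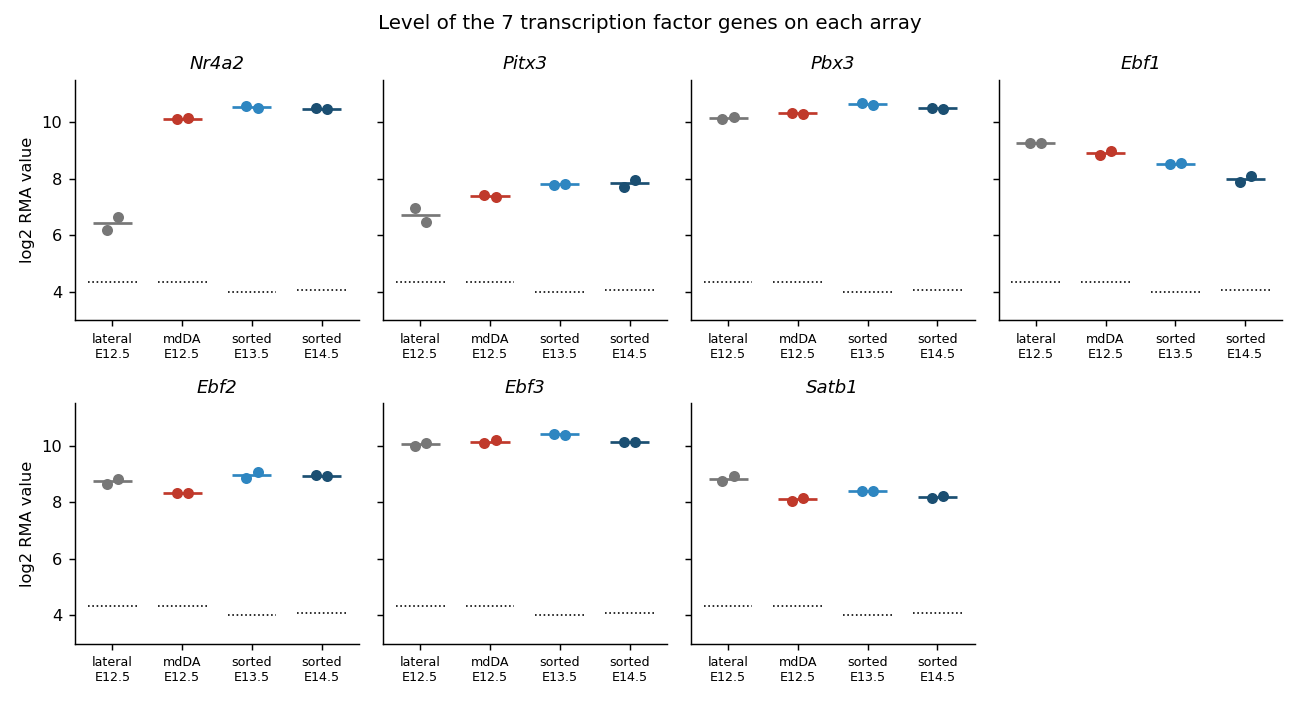
Log2 RMA level (vertical axis) of each of the 7 genes on the 8 arrays, by group; points are arrays, horizontal bars group means and dotted lines the 95th percentile of the odorant and vomeronasal receptor probe sets in that group. *Nr4a2* separates the lateral arrays (6.20 and 6.63) from all others (10.10 to 10.58), while *Ebf1* is highest on the lateral arrays and lowest at E14.5.

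*Nr4a2* was the member with the largest difference between the domains. Its level was 6.20 and 6.63 on the lateral arrays, 10.10 and 10.16 on the mdDA arrays, 10.58 and 10.52 in E13.5 neurons and 10.49 and 10.46 in E14.5 neurons. The lateral arrays lay far below the 6 others, and the mdDA arrays lay below all sorted arrays. In the mdDA domain it was 3.71 higher on the log2 scale, 13.1-fold (standard error 0.17, 95% interval 3.25 to 4.17, adjusted p = 0.0224, paired limma). In tissue, fewer cells that carry a transcript and less of it per cell cannot be told apart, which holds for every gene below. Here and below, domain fits with 1 array left out had no replicate block, unlike the paired fit. With all arrays of the domains and no block the adjusted p of *Nr4a2* was 0.00694 (limma). With a single mdDA array the call was lost, while the difference remained between 3.49 and 3.93 when any 1 array was left out. In sorted neurons *Nr4a2* was 0.39 above the mdDA domain (95% interval 0.05 to 0.73), which did not pass (adjusted p = 0.135, limma), and 4.10 above the lateral domain, 17.1-fold (adjusted p = 6.01e-05, limma). The difference from the mdDA domain depended on the fit, since it passed with the arrays of the compared groups alone (adjusted p = 0.0924, limma), with the trend and robust options (0.0912), among single-symbol probe sets (0.0980) and after centring (0.58, adjusted p = 0.0418). Between E14.5 and E13.5 *Nr4a2* differed by -0.07 (95% interval -0.42 to 0.28).

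*Pitx3* cannot be read as a finding in these samples, because PITX3 staining guided the dissection and GFP from its locus guided the sort, so its values are a check of both. Its level was 6.97 and 6.47 on the lateral arrays, 7.44 and 7.34 on the mdDA arrays, 7.79 and 7.82 at E13.5 and 7.72 and 7.97 at E14.5. The order of the groups followed the selection, with no overlap between lateral, mdDA and sorted arrays. The steps were small, 0.67 from the lateral to the mdDA domain and 0.44 from there to the sorted neurons on the log2 scale. Neither passed (adjusted p = 0.228, paired limma, and 0.143, limma). Both passed among single-symbol probe sets (0.020 and 0.0978), and the second also after centring (0.0509). Restricting the probe sets changes the spread that limma shares across them as well as the number of tests. Between the domains it moved the adjusted p of *Nr4a2* from 0.0224 to 9.31e-09 (paired limma). The probe sets called there went from 931 of 35556 to 2502 of 21789. The paper lists *Pitx3* among the transcripts significantly enriched in the mdDA domain. The sorted neurons carry GFP in a *Pitx3* allele, and the part of this allele in the second step was not tested. The lateral arrays differed by 0.49 from each other. The *Pitx3* probe set read well above the floor also in the lateral tissue, which was cut outside the mdDA domain.

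*Pbx3* varied little. It stood at 10.10 and 10.17 in the lateral domain, 10.33 and 10.30 in the mdDA domain, 10.68 and 10.62 at E13.5 and 10.52 and 10.47 at E14.5. The groups did not overlap, and the order was lateral, mdDA, E14.5 and E13.5 from low to high. The mdDA domain was 0.18 above the lateral domain (95% interval -0.22 to 0.58, adjusted p = 0.713, paired limma), and the sorted neurons were 0.26 above the mdDA domain (adjusted p = 0.146, limma), neither of which passed, although the latter did with the trend and robust options (0.0336) and after centring (0.0288). Against the lateral domain the sorted neurons were 0.43 higher, 1.35-fold (standard error 0.10, adjusted p = 0.0255, limma). This call was lost without lateral replicate 1 (adjusted p = 0.151) or lateral replicate 2 (0.109).

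The 3 EBF genes took different courses. *Ebf1* was measured at 9.28 and 9.25 in the lateral domain, 8.83 and 8.97 in the mdDA domain, 8.50 and 8.56 at E13.5 and 7.87 and 8.10 at E14.5. It was the only member whose level was lower in each group along this sequence, with no overlap between neighbouring groups. The 0.36 gap between the domains did not pass (95% interval -0.77 to 0.05, adjusted p = 0.425, paired limma). In sorted neurons *Ebf1* fell by 0.64 on the log2 scale against the mdDA domain, 1.56-fold (standard error 0.11, adjusted p = 0.0204, limma), and was 1.00 below the lateral domain, 2.00-fold (adjusted p = 0.00241, limma). Without mdDA replicate 2 the first of these calls was lost (adjusted p = 0.114). From E13.5 to E14.5 it differed by -0.55 (95% interval -0.95 to -0.14), which did not pass across all probe sets (adjusted p = 0.744, limma).

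*Ebf2* had its lowest level in the mdDA domain. The arrays read 8.67 and 8.81 in the lateral domain, 8.33 and 8.34 in the mdDA domain, 8.88 and 9.06 at E13.5 and 8.95 and 8.94 at E14.5. The mdDA arrays lay below the 6 others. The sorted neurons were 0.62 above the mdDA domain, 1.54-fold (standard error 0.11, adjusted p = 0.0197, limma), a call that was lost without mdDA replicate 1 (adjusted p = 0.115). The mdDA domain was 0.40 below the lateral domain (95% interval -0.81 to 0.004, adjusted p = 0.370, paired limma), and the sorted neurons were 0.22 above it (adjusted p = 0.226, limma), neither of which passed.

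*Ebf3* was the flattest of the 7 genes, with group means that spanned 0.35 on the log2 scale. It read 9.99 and 10.10 in the lateral domain, 10.10 and 10.19 in the mdDA domain, 10.41 and 10.39 at E13.5 and 10.12 on both arrays at E14.5. The mdDA arrays overlapped with the lateral arrays and spanned the E14.5 arrays, the E14.5 arrays lay just above the lateral ones, and the E13.5 arrays lay above all others. None of the 4 comparisons of *Ebf3* passed with the deposited values and default settings. Against the lateral domain the sorted neurons differed by 0.21 (adjusted p = 0.196, limma), which passed with the trend and robust options (0.0607) and after centring the arrays on their medians (0.0307). In the fit over all 8 arrays, E13.5 neurons alone were 0.35 above the lateral domain (adjusted p = 0.0972, limma), where 20.2% of all probe sets passed. The domain difference was 0.10 with a 95% interval of -0.30 to 0.49.

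*Satb1* was highest in the lateral domain. Its level was 8.76 and 8.93 there, 8.04 and 8.17 in the mdDA domain, 8.42 and 8.39 at E13.5 and 8.17 and 8.23 at E14.5. Both lateral arrays lay above the 6 others. The mdDA domain was 0.74 lower, 1.67-fold, with a 95% interval of -1.14 to -0.34 that did not include zero, but in the paired fit the adjusted p was 0.141 (limma). It passed in the fit without the replicate block (adjusted p = 0.0947, limma) and in that over all 8 arrays (0.0387), so this call depends on the fit. The sorted neurons were 0.54 below the lateral domain, 1.46-fold (adjusted p = 0.0171, limma), which was lost without lateral replicate 2 (adjusted p = 0.126), and differed from the mdDA domain by 0.20 (adjusted p = 0.293, limma), by -0.0094 after repeated quantile normalization, and by 0.39 after centring, where it passed (adjusted p = 0.0633).

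Counted by comparison, 1 of the 7 genes (*Nr4a2*) passed between the domains, where 2.62% of all 35556 probe sets passed (1.52% higher and 1.1% lower in the mdDA domain). In sorted neurons against the mdDA domain 2 of 7 passed, *Ebf2* higher and *Ebf1* lower, where 18.4% of all probe sets did (8.53% higher and 9.84% lower). Of those 46.4% were higher in sorted neurons, a share that became 75.8% when the arrays were centred on their medians, which moved the median difference of all probe sets by 0.20. After that centring 7 of 7 members passed, 6 of them higher and *Ebf1* lower, where 7362 of the 35556 probe sets passed. Against the lateral domain 5 of 7 passed, *Nr4a2*, *Pitx3* and *Pbx3* higher and *Ebf1* and *Satb1* lower, where 25.9% of all probe sets did (44.1% of them higher, and 71.1% after centring). After centring 7 of 7 passed here too, 5 higher and 2 lower, with *Ebf2* (adjusted p = 0.0377, limma) and *Ebf3* added. Of the 35556 probe sets 9437 passed in that fit. Of E14.5 against E13.5 limma called 0 of 7 genes and 0 of all probe sets, with 2156 probe sets at an unadjusted p below 0.05 and 20 called when all 8 arrays entered the fit. *Pitx3* is in these counts although it guided the selection of cells. Sorted and dissected samples differ at once in stage, strain, genotype and isolation, which cannot be told apart, and the comparisons share arrays.

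**Figure D2:**
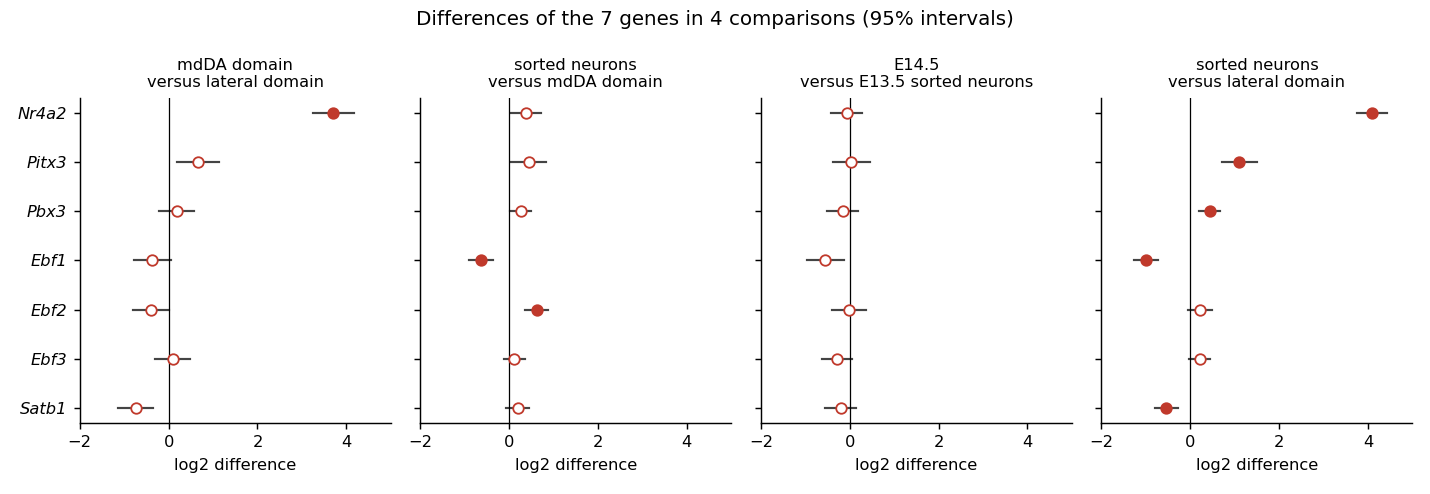
Log2 difference (horizontal axis) of the 7 genes in the 4 comparisons, with 95% intervals from limma; filled points passed a false discovery rate of 10% over all probe sets and open points did not. *Nr4a2* passed between the domains, *Ebf1* and *Ebf2* passed in opposite directions between sorted neurons and the mdDA domain, and no gene passed between E14.5 and E13.5.

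Ordered by group mean, the 7 genes gave 21 pairs of neighbouring groups, of which 2 passed in limma over all 8 arrays. *Nr4a2* passed between the mdDA and lateral domains, where 3.7% of all probe sets did in this fit. *Satb1* passed between the lateral domain and E13.5 neurons (gap of 0.44, adjusted p = 0.0656, limma), where 20.2% did. The *Satb1* pair did not pass at a rate of 5%, after centring, or without any 1 of the lateral or E13.5 arrays. The *Nr4a2* pair passed in each of these. Between E13.5 and E14.5 the share of all probe sets was 0.0562%. The spread of the group means was 4.13 for *Nr4a2*, which exceeded that of 99.8% of all genes, 1.28 for *Ebf1* (93.1%), 1.13 for *Pitx3* (90.5%) and between 0.35 and 0.74 for *Satb1*, *Ebf2*, *Pbx3* and *Ebf3* (41.7% to 78.5%).

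Likeness to other genes was measured as the root mean square distance between centred log2 profiles over the 8 arrays, and given as a description. The genes nearest to *Nr4a2* were *En1* (0.16) and *En2* (0.23), the engrailed homeodomain genes of the midbrain and hindbrain, and *Cbln1* (0.25). *Osbp2* (0.07), *Grk3* (0.12) and *Strn4* (0.13) were nearest to *Pitx3*, *Mn1* (0.09), *Rnaseh2b* (0.12) and *Cnn3* (0.12) to *Ebf1*, *Zfp326*, *Serinc3* and *Ppp1cb* (0.09 each) to *Ebf2* and *Trim2* (0.06), *Gse1* (0.07) and *Frmd4a* (0.08) to *Satb1*. For *Pbx3* they were *Dynll1* (0.05), *Abi2* (0.05) and *Lrig2* (0.06), and for *Ebf3* *Fastk* (0.04), *Tbpl1* (0.05) and *Herc2* (0.06). Among the members, *Pbx3* and *Ebf3* were the closest pair (0.11), while *Nr4a2* and *Pitx3* lay 1.33 apart. The distance is not scaled, so profiles with little spread lie close and profiles of unequal spread lie apart. The spread of the group means was 4.13 for *Nr4a2* and 1.13 for *Pitx3*, against 0.51 for *Pbx3* and 0.35 for *Ebf3*. *Pitx3* was still the member nearest to *Nr4a2*, at rank 620 among all genes, with the other members at ranks 2621 to 19321.

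Of 6 measured relatives (*Nr4a1*, *Nr4a3*, *Pitx1*, *Pbx2*, *Pbx4* and *Ebf4*) none passed between the domains, 2 rose in sorted neurons against the mdDA domain (33.3%, with 18.4% of all probe sets called) and 3 against the lateral domain (50%, with 25.9%). *Nr4a1* (NUR77), an immediate-early member of the NR4A family, read 5.55 and 5.03 on the lateral arrays, 5.13 and 5.03 on the mdDA arrays, 8.36 and 8.40 at E13.5 and 8.17 and 8.15 at E14.5. The sorted arrays lay above all dissected arrays, and the rise over the mdDA domain was 3.19 on the log2 scale, 9.15-fold (adjusted p = 7.49e-04, limma). *Nr4a1* thus separated sorted from dissected samples, and *Nr4a2* separated the lateral domain from the rest. The traits that set sorted apart from dissected samples, named above, cannot be told apart here either.

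*Pitx1*, a relative of *Pitx3*, read 4.32 and 4.11 in the lateral domain, 4.17 and 4.43 in the mdDA domain, 5.99 and 5.75 at E13.5 and 4.63 and 5.19 at E14.5. Both lateral arrays and mdDA replicate 1 lay below the floor, and mdDA replicate 2 lay just above it, so the size of a rise from them is uncertain. The measured rise in sorted neurons was 1.09 against the mdDA domain (adjusted p = 0.0190, limma), a call lost without mdDA replicate 1 (adjusted p = 0.130). Against the lateral domain *Pitx1* was at least 2.09-fold higher, with the lateral arrays set to the floor. Its E13.5 values lay above those at E14.5, a difference of -0.96 that did not pass. *Nr4a3*, the remaining NR4A gene, rose by 0.68 against the lateral domain (adjusted p = 0.0214, limma), from a level below the floor, which makes it at least 1.23-fold higher. This call was lost without lateral replicate 1 (adjusted p = 0.101) or lateral replicate 2 (0.134). *Pbx2*, *Pbx4* and *Ebf4* passed in no comparison.

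**Figure D3:**
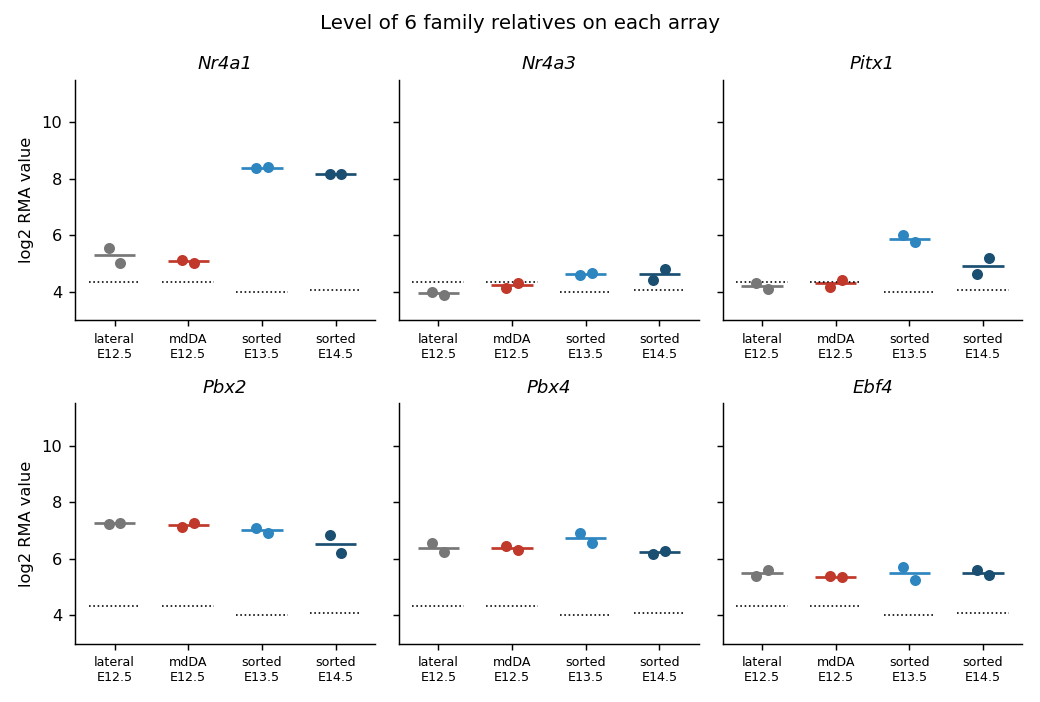
Log2 RMA level (vertical axis) of 6 family relatives on the 8 arrays, by group; points are arrays, horizontal bars group means and dotted lines the 95th percentile of the receptor probe sets. *Nr4a1* is at 8.15 to 8.40 on the sorted arrays and at 5.03 to 5.55 on the dissected ones.

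Of 14 measured binding partners and co-regulators, 2 fell in the mdDA domain and none rose (14.3%, with 2.62% of all probe sets called). Both were TALE partners of PBX proteins, *Meis2* (lateral 9.12 and 9.15, mdDA 6.13 and 5.95, log2 difference -3.09, adjusted p = 0.0241, limma) and *Meis1* (-1.21, adjusted p = 0.0675, limma). So while *Pbx3* differed by 0.18 between the domains, *Meis2* was 8.52-fold lower in the mdDA domain. In sorted neurons against the mdDA domain 3 fell and none rose: *Meis2* (-1.13), the histone deacetylase gene *Hdac1* (-0.69) and *Zfp521* (-0.52), which encodes a zinc finger partner of EBF proteins. That share of 21.4% is near the 18.4% of all probe sets called in this comparison. Against the lateral domain 8 fell, led by *Meis2* (-4.22), *Meis1* (-1.54), *Zfp521* (-1.13) and *Hdac1* (-1.12), and 1 rose, the PBX partner gene *Pknox2* (0.90, adjusted p = 0.00845, limma), 64.3% of the list in all, with 25.9% of all probe sets called. With 1 array left out, *Meis1* passed in none of the domain fits, *Meis2* failed without mdDA replicate 1 (adjusted p = 0.106) or mdDA replicate 2 (0.123), and in sorted neurons against the mdDA domain *Hdac1* failed without mdDA replicate 2 (0.160) and *Meis2* without either mdDA array (0.184 and 0.123). *Zfp521* failed there with any 1 of these arrays left out except E14.5 replicate 2, and after centring (adjusted p = 0.228). The sum of progenitor markers was lower in the same direction in each of these comparisons. That of GABAergic markers was lower in the mdDA domain and in sorted neurons than laterally. It was higher in sorted neurons than in the mdDA domain. Single GABAergic markers departed from the sum in the comparisons with sorted neurons, as given above. The part of either cell type was not tested.

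Of 11 measured genes known to depend on NR4A2 or PITX3 in mdDA neurons, 8 rose in the mdDA domain (median log2 difference 2.02). Of all probe sets 1.52% passed with a rise there, and their median difference was -0.01. In sorted neurons against the mdDA domain 9 rose, where 8.53% of all probe sets did (median 1.26 against -0.08). Against the lateral domain 11 were higher in sorted neurons, where 11.4% of all probe sets were (median 3.98 against -0.09). The last count fell to 10 when any 1 array was left out, since *Bdnf* (0.32, with both lateral arrays below the floor) no longer passed, as also with a replicate block (adjusted p = 0.106) and with the trend and robust options (0.105). Among the domain differences, *Th* was at 3.86, *Slc18a2* at 3.15 and *Klhl1* at 2.86. *Ddc*, the gene of the enzyme that makes dopamine from L-DOPA, read 3.68 and 3.66 on the lateral arrays, below the floor, and was at least 11.7-fold higher in the mdDA domain. Several of the 11 genes also define the cells, so these counts describe the samples. Of the 8 domain calls, 7 were lost without mdDA replicate 1 and 7 without mdDA replicate 2, *Ddc* being the exception in both. *Ret*, the GDNF receptor gene, read 4.41 and 4.05 on the lateral arrays, the second of these below the floor. It read 6.46 and 6.38 on the mdDA arrays, 8.20 and 8.26 at E13.5 and 8.30 and 8.15 at E14.5. Between the last groups it differed by -0.01 on the log2 scale, and between the domains by 2.19 (adjusted p = 0.0385, limma, and 0.129 or 0.136 without mdDA replicate 1 or 2).

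*Aldh1a1*, the retinoic acid-synthesizing enzyme gene that depends on PITX3, followed another course than *Nr4a2*. It read 4.07 and 4.39 in the lateral domain, 4.41 and 3.66 in the mdDA domain, 7.98 and 7.78 at E13.5 and 9.31 and 9.38 at E14.5. The domains overlapped, and both mdDA arrays and lateral replicate 1 lay below the floor. With the mdDA arrays set to the floor, the sorted neurons were at least 19.2-fold higher (adjusted p = 7.49e-04, limma). Between E13.5 and E14.5 it differed by 1.47, 2.77-fold, with an interval of 1.07 to 1.87 that did not pass across all probe sets (adjusted p = 0.667, limma). Over the same step *Nr4a2* differed by -0.07 and *Pitx3* by 0.04. *Bdnf* (0.05) and *Drd2* (0.59) did not pass between the domains either, and *Klhl1* (0.88) and *Bdnf* (0.27) did not pass between sorted neurons and the mdDA domain.

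**Figure D4:**
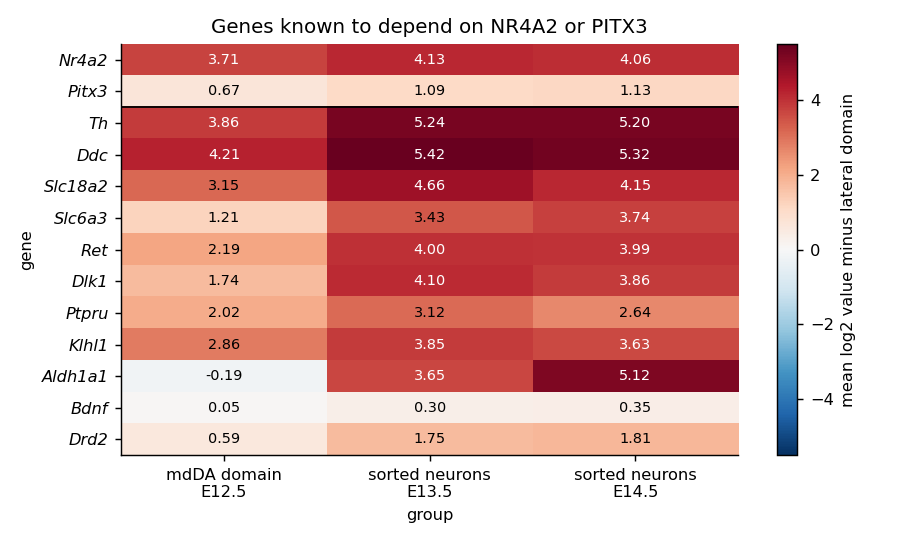
Mean log2 level minus that of the lateral domain (colour and printed number) of *Nr4a2*, *Pitx3* and 11 genes known to depend on them (rows) in the mdDA domain and both groups of sorted neurons (columns). *Aldh1a1* is at -0.19 in the mdDA domain and at 3.65 and 5.12 in the sorted neurons, while *Nr4a2* is at 3.71, 4.13 and 4.06. Values of *Ddc*, *Bdnf*, *Aldh1a1* and, through lateral replicate 2, *Ret* rest on lateral or mdDA arrays below the floor.

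Of 10 other measured mdDA transcription factor genes, 7 passed with a rise and *Otx2* with a fall in the mdDA domain relative to lateral tissue, led by the forkhead genes *Foxa1* (3.55) and *Foxa2* (3.44) and by *En1* (3.42) and *En2* (3.17), and none of these calls held without mdDA replicate 1 or without mdDA replicate 2. Of all probe sets, 1.52% passed with a rise and 1.1% with a fall between these domains. In sorted neurons against the mdDA domain 2 of the 10 genes rose, *Lmx1b* (0.61) and *Foxa1* (0.70), where 8.53% of all probe sets did. The 3 that fell were the progenitor factors *Neurog2* (-1.49) and *Msx1* (-1.02) and the subset factor *Sox6* (-0.44), where 9.84% of all probe sets fell. *Neurog2* and *Msx1* had been higher in the mdDA domain than laterally, by 1.10 and 1.39. The calls of *Lmx1b* and *Foxa1* were lost after repeated quantile normalization (adjusted p = 0.124 and 0.169), without mdDA replicate 1 (0.154 and 0.120) and without mdDA replicate 2 (0.138 and 0.233), and that of *Foxa1* also without E13.5 replicate 1 (0.113). The call of *Sox6* was lost after centring (0.313), with a replicate block (0.133), with the arrays of the compared groups alone (0.133), with the trend and robust options (0.121) and with any 1 of the compared arrays left out (0.117 to 0.356). Between E13.5 and E14.5 none of these 10 genes passed, nor did any of the 35556 probe sets in the fit of the sorted arrays alone.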

How the data were processed

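RNA of 4 groups was measured on 8 Affymetrix Mouse Gene ST arrays. The values deposited by the authors are log2 levels of probe sets. They came from RMA (Affymetrix Expression Console 1.2, sketch-quantile) and were used without further normalization or filter. A genome build for the probe sets is not given in the sources used here. Probe sets were named through the platform annotation: 21789 of 35556 had 1 gene symbol. A gene is represented by the probe set with the highest mean.

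The domains were compared with limma 3.58.1 in R 4.3.3 on their 4 arrays with the replicate number as a block, since the study's methods name a paired test without saying what pairs the arrays. Without a block, both sorted groups together were compared with each domain (8 arrays in the fit) and the sorted stages with each other (4 arrays). P-values were adjusted by Benjamini-Hochberg across the whole array, with a false discovery rate of 10%. The number of arrays limits the precision. The tests were tested on simulated data.

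The genes, the lists and the markers were chosen with earlier results of these data known. Named are the members, their measured relatives, the 3 nearest profiles of each member and, of each other list, up to 4 called genes with the largest differences per comparison. *Ret*, *Drd2*, *Bdnf*, *Klhl1*, *Otx2* and *Sox6* were named, and the genes shown per array chosen, after their values were seen. Some listed genes are not reported here. Alternatives were another block, more or fewer arrays per fit, quantile normalization run again, median centring, leaving out dim probe sets, limma's trend and robust options, a rate of 5%, only probe sets with 1 symbol and leaving out each array, the last always without a block. Those for the order of groups and for list genes were added after seeing the data. Motifs were searched with Python 3.11.15 and pandas 2.3.3, and figures drawn with matplotlib 3.10.9.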

Additional observations from a re-analysis of the deposited data

How the results depend on the processing

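With no replicate block 1434 probe sets and 2 of the 7 genes passed between the domains, against 931 and 1 with the block, and the same-numbered arrays did not deviate together (correlation -0.015). The other fits gave 1412 probe sets with dim ones left out, 1646 with the trend and robust options, 227 at a rate of 5% and 2502 among probe sets with 1 symbol. Leaving out probe sets also changes the spread that limma shares across them. The members called were 2 with all 8 arrays, without dim probe sets and with the trend and robust options, where *Satb1* joined *Nr4a2*, and 3 with single-symbol probe sets, where *Pitx3* joined too. For sorted neurons against the mdDA domain, 3935 probe sets passed at 5%. Members called were 3 with the compared arrays alone (5059 probe sets) and 7 after centring (7362 probe sets). They were 4 with the trend and robust options (6607 probe sets) and 4 with single-symbol probe sets (4993 of 21789). For E14.5 against E13.5, 20 probe sets passed with all 8 arrays. Of the neighbouring pairs 6 passed after centring, without that of *Satb1*, and 1 at 5%, that of *Nr4a2* between the domains. After repeated quantile normalization *Ebf3* and *Satb1* changed sign between sorted neurons and the mdDA domain (-0.0123 and -0.0094, from 0.12 and 0.20), and neither had passed. The block changed no other call of a member. Leaving out 1 array gave 15 to 170 probe sets and 0 to 1 members between the domains, 2037 to 6505 and 1 to 2 for sorted neurons against the mdDA domain, 0 to 0 between the stages, 4695 to 9162 and 3 to 5 for sorted neurons against the lateral domain, and 1 to 2 neighbouring pairs. In fits that leave 1 array in a group, that array is assumed to vary like the others. Between the domains these fits had no block, so they compare with the 1434 probe sets of the fit without it. *Ebf2* (-0.12 to 0.07) and *Pitx3* (-0.085 to 0.164) changed sign between the stages. The cause of these differences was not tested. Each member has 1 probe set, so the choice among several gave no value.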
